A study of Mus musculus with 7 samples.

Results

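The cadherin switch and mesenchymal transition were followed through 7 genes: Cdh1, Cdh2, Epcam, Vim, Twist1, Cldn6 and Fn1. They were taken by symbol from a deposited table of 12071 gene symbols, and all 7 were found, each with 1 listed transcript. Expression was measured by RNA sequencing of rRNA-depleted total RNA in feeder-free cultures of CCE, an embryonic stem cell line of the mouse, grown on gelatin with serum. The day 0 cells grew with leukemia inhibitory factor (LIF), which keeps mouse stem cells undifferentiated, and were given DMSO. The cells of days 1, 2, 3, 4, 5 and 6 had no LIF and were given 5 µM retinoic acid, a vitamin A derivative that acts through nuclear receptors. Each day had 1 library, so no day has a replicate, and the effects of retinoic acid, of losing LIF and of time cannot be told apart. Whether each day had its own culture is not in the labels, so the scatter between libraries may be technical. In such bulk samples fewer cells of a type and less RNA per cell cannot be told apart either.

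Cadherins are calcium-dependent adhesion molecules that join like cells and hold the actin cytoskeleton through catenins. In an epithelial-mesenchymal transition, as at gastrulation or in neural crest, E-cadherin (Cdh1) gives way to N-cadherin (Cdh2), the vimentin filament network expands and cells gain contact with a fibronectin matrix. Twist1, Snail and Zeb factors, which bind E-box sequences (CANNTG), are known as repressors of epithelial genes and drivers of this change. Mouse embryonic stem cells are epithelial in their contacts and carry E-cadherin and EpCAM at the surface.

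Across days 0 to 5 the epithelial genes Cdh1 and Epcam fell, and Cdh2, Vim and Twist1 rose. Cldn6, also a gene of epithelia, had a rising slope, with its highest value on day 3. Fn1 had no called slope. The deposited values are log2 read values scaled per library. By day 5 Cdh2 was 36.8-fold, Twist1 26.0-fold and Vim 4.78-fold higher than on day 0, and Cdh1 was 6.13-fold and Epcam 5.85-fold lower. At a size rule of 4-fold, 3 of the 7 members were higher on day 5, against 12.7% of all symbols in the table, and 2 were lower, against 4.66%. On day 2, Cdh2 and Twist1 already stood at least 4-fold higher, against 8.43% of all symbols, and no member was 4-fold lower, against 2.58%.

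**Figure D1:**
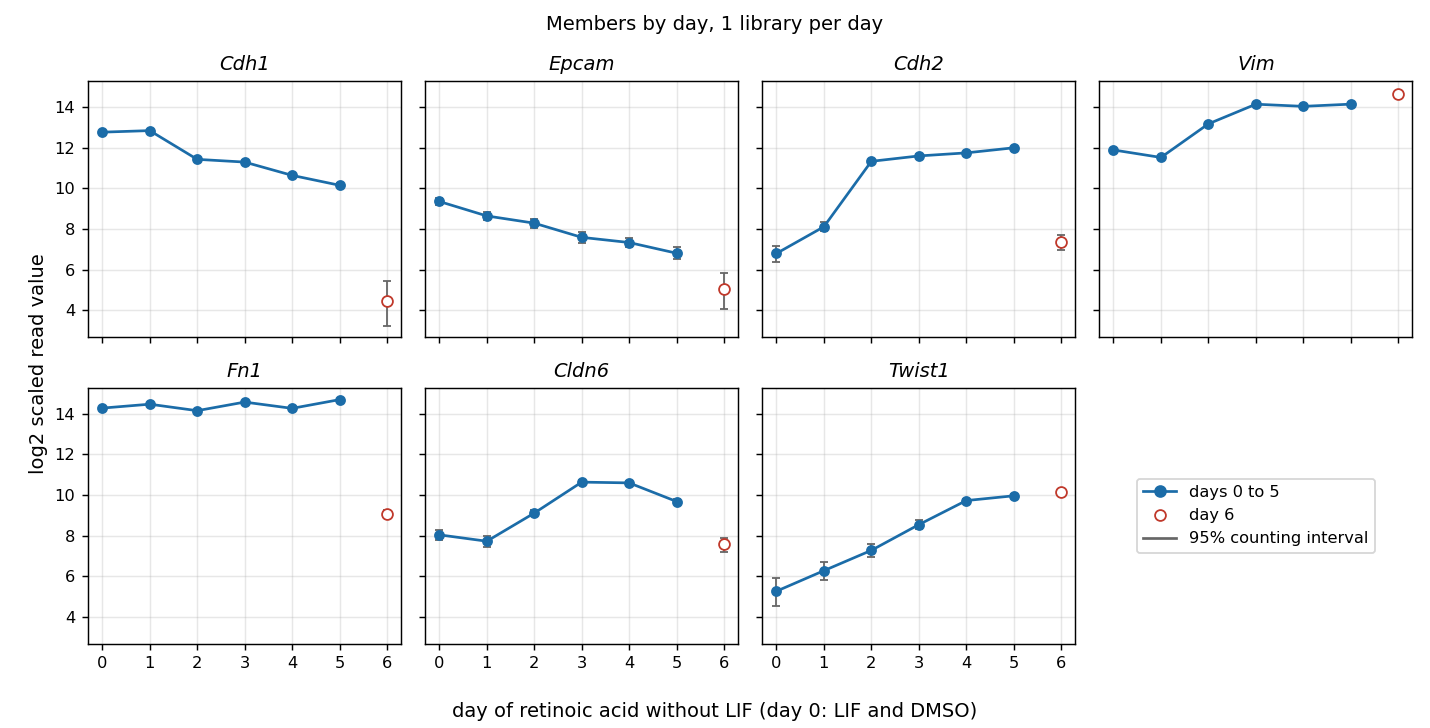
Log2 scaled read value (vertical axis) of the 7 genes in each daily library (horizontal axis); filled points joined by lines are days 0 to 5, the open point is day 6, and bars are 95% Poisson counting intervals. Cdh1 and Epcam descend, Cdh2, Vim and Twist1 climb, Cldn6 peaks on day 3, and Fn1 stays between 14.16 and 14.70 until day 5.

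With limma, expression over days 0 to 5 was regressed on day for 7242 genes with enough signal (a mean log2 value above 8.40), and calls were made at a Benjamini-Hochberg adjusted p under 0.05. In that fit 25.7% of all genes rose and 26.8% fell. Of the 5 members that passed the expression filter, Cdh2, Vim and Cldn6 rose and Cdh1 fell. A gene low on day 0, here and in the lists below, could pass the filter only through its later days. Cdh2 (6.80 on day 0) and Cldn6 (8.04) did so. Epcam and Twist1 lay below the filter and were read from the fit with no filter over 12071 symbols. There 25.9% of genes rose and 22.1% fell, Twist1 rose and Epcam fell. In that fit Cdh2 (adjusted p = 0.00861), Vim (0.0088) and Cldn6 (0.0355) rose as well, and Cdh1 fell (0.00269). A joint limma F-test of day and day squared, which also calls straight lines, called 52.4% of the 7242 genes and the same 4 of the 5 members kept.

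Promoter sequence was on hand in RefSeq (GRCm38.p6) for Vim, Twist1, Cldn6 and Epcam, and those of Epcam, which fell, and Cldn6, which rose, are shown because both hold E-boxes. Each runs 5′ to 3′ on the plus strand, from 250 bases before the transcript start to 50 after it, with every CANNTG in capitals. The Epcam window lies at chr17:87635729-87636028 and the Cldn6 window at chr17:23679115-23679414.
Epcam: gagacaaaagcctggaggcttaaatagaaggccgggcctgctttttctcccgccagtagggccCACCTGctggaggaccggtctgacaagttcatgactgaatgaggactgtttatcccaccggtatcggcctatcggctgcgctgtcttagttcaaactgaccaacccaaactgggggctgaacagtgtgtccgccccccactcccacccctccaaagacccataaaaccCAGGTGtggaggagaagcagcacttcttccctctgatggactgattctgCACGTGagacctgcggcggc
Cldn6: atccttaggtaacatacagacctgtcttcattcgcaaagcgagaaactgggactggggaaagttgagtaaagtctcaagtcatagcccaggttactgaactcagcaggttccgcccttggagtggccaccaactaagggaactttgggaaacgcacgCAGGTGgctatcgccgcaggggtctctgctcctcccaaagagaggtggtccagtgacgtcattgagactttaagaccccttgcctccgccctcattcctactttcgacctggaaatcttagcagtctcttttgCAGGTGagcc
Counted from the transcript start, the Epcam window has CACCTG at −187, CAGGTG at −19 and CACGTG at 31. The Cldn6 window has CAGGTG at −93 and again at 41. Both strands were searched, and CANNTG reads as CANNTG on the other strand. In the windows of Vim and Twist1 CANNTG was not found in these letters. Of 32851 promoter windows of the same length, 72.3% hold CANNTG and 20.2% hold CAGGTG or its complement CACCTG, a form that Snail and Zeb factors are known to bind. A match describes the letters only.

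Cdh1 encodes E-cadherin, the adherens junction protein of epithelia (NM_009864, chromosome 8, 109127267 to 109194146 on the plus strand in mm9, 4429 nt of transcript). Its log2 values were 12.77, 12.85, 11.44, 11.30, 10.65 and 10.16 on days 0 to 5. Days 0 and 1 were the 2 highest and days 4 and 5 the 2 lowest, with day 5 at 956 reads, against 3644 reads on day 0. The step from day 1 to day 2 fell by 1.41 (95% counting interval −1.50 to −1.33) and was larger than any other daily step of Cdh1 before day 6. The line fell by 0.57 ± 0.064 (SE) log2 units per day (adjusted p = 0.0025). On day 5 the difference from day 0 was −2.62 (interval −2.72 to −2.51).

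Epcam encodes the epithelial cell adhesion molecule, a calcium-independent surface protein (NM_008532, chromosome 17, 88035318 to 88050467, plus strand, mm9). Its log2 values were 9.36, 8.65, 8.29, 7.59, 7.34 and 6.81 on days 0 to 5, each day lower than the one before. It had 94 reads on day 5, against 342 on day 0. The largest daily decreases were those to day 1 (−0.71) and to day 3 (−0.70), and the step from day 3 to day 4 of −0.26 had an interval reaching from −0.64 to 0.13. The slope was −0.50 ± 0.046 per day in the fit with no filter (adjusted p = 0.002).

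Cdh2 encodes N-cadherin, the cadherin of neural tissue, heart and many mesenchymal cells (NM_007664, chromosome 18, 16747385 to 16967558, minus strand, mm9, 4662 nt). Cdh2 had log2 values of 6.80, 8.12, 11.34, 11.60, 11.75 and 12.00 on days 0 to 5. All later days stood above day 0, where the library held 58 reads, against 3435 reads on day 5. Most of the climb fell in 1 step: day 2 stood 3.22 above day 1 (interval 2.99 to 3.47), while the next 3 steps were 0.27, 0.15 and 0.25. The slope was 1.06 ± 0.21 per day (adjusted p = 0.00782). Without the day 0 library it was 0.82 with an adjusted p of 0.0537.

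Set on a common scale per kilobase of transcript, the levels of both cadherins crossed between days 2 and 3. Within each library Cdh2 made up 1.49% of the summed Cdh1 and Cdh2 level on day 0 and 3.44% on day 1. On day 2 its share was 47.0%. Day 3 had 53.9%, day 4 had 67.2% and the share of day 5 was 77.3%. The exact binomial intervals (Clopper-Pearson, 95%) were 45.2% to 48.8% on day 2 and 52.1% to 55.8% on day 3, on either side of equal levels. The log2 difference of Cdh2 minus Cdh1 per kilobase was 1.77 on day 5, against −6.05 on day 0. The summed level of both moved less, from 10.11 on day 4 to 10.75 on day 1 in log2 units per kilobase, over days 0 to 5. All intervals here describe counting error alone, as sequenced copies of 1 molecule could not be told from separate molecules.

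**Figure D2:**
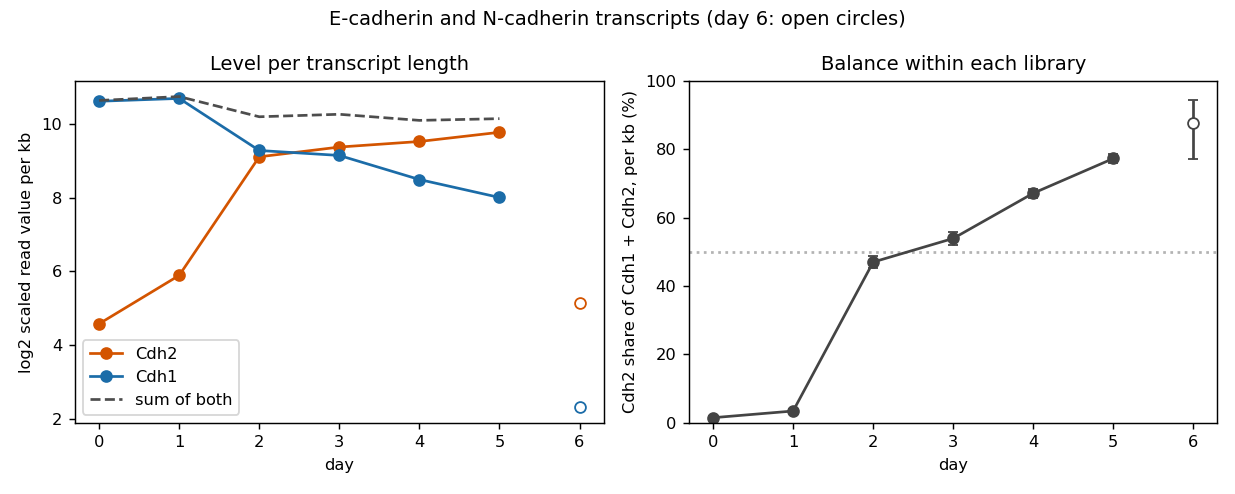
Left, log2 scaled read value per kilobase of Cdh2, Cdh1 and their sum by day. Right, the Cdh2 share of the summed level in percent with 95% binomial counting intervals and a dotted line at equal levels; day 6 is drawn open. The share stands at 47.0% on day 2 and 53.9% on day 3, and the sum stays between 10.11 and 10.75 over days 0 to 5.

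Vim encodes vimentin, the intermediate filament protein of mesenchymal and many embryonic cells (NM_011701, chromosome 2, 13495937 to 13504453, plus strand, mm9). Its log2 values were 11.90, 11.53, 13.18, 14.15, 14.05 and 14.15 on days 0 to 5. Day 1 was the lowest, day 2 stood in between and days 3 to 5 formed the top, where days 3 and 5 differed by 0.0028 (interval −0.035 to 0.040). The dip on day 1 was −0.37 against day 0 (interval −0.46 to −0.28), and the largest step, to day 2, was 1.65. The slope was 0.57 ± 0.11 per day (adjusted p = 0.00796). Vim was abundant from the start, with a day 0 level per kilobase at the 92.0th percentile of the 7242 genes and a day 5 level at the 99.0th.

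Twist1 encodes a basic helix-loop-helix transcription factor of mesoderm and neural crest (NM_011658, chromosome 12, 34642535 to 34644696, plus strand, mm9). Its log2 values were 5.26, 6.28, 7.28, 8.54, 9.73 and 9.96 on days 0 to 5, each day above the one before. The library of day 0 held 20 reads, against 835 reads on day 5. The 4 steps up to day 4 lay from 1.00 to 1.27 and the last was 0.24 (interval 0.092 to 0.38). The slope was 1.00 ± 0.068 per day in the fit with no filter (adjusted p = 0.0019). Per kilobase Twist1 reached 9.26 on day 5, at the 71.5th percentile of the 7242 genes, against 4.56 and the 1.75th percentile on day 0.

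Cldn6 encodes claudin 6, a tight junction protein of embryonic epithelia (NM_018777, chromosome 17, 23816331 to 23819407, plus strand, mm9). Log2 values of Cldn6 were 8.04, 7.73, 9.11, 10.64, 10.60 and 9.68 on days 0 to 5. Days 3 and 4 were highest and differed by 0.038 (interval −0.089 to 0.16 for day 3 minus day 4), days 0 and 1 were lowest, and day 5 had come down by 0.92 from day 4. Cldn6 stood 6.05-fold above day 0 on day 3 and 3.12-fold above it on day 5. The slope was 0.52 ± 0.16 per day (adjusted p = 0.0331), and the F-test gave an adjusted p of 0.0392. The call was lost without day 0 (adjusted p = 0.112), without day 1 (adjusted p = 0.0807), without day 4 (adjusted p = 0.0931) and with quantile normalization (adjusted p = 0.0619).

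Fn1 encodes fibronectin, the matrix glycoprotein that integrins bind (NM_010233, chromosome 1, 71632096 to 71699745, minus strand, mm9, 8358 nt). Fn1 had log2 values of 14.28, 14.47, 14.16, 14.58, 14.27 and 14.70 on days 0 to 5, and days with retinoic acid lay on both sides of day 0. Days 0 and 4 differed by 0.013 (interval −0.022 to 0.048). Its highest and lowest of these days differed 1.46-fold, and those of the other members from 5.85-fold in Epcam to 36.8-fold in Cdh2. The slope was 0.054 ± 0.044 per day (adjusted p = 0.325), with a sign that turned after correction for transcript length (−0.067, adjusted p = 0.375). Its level per kilobase was already at percentile 93.3 of the 7242 genes on day 0.

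The members differed in timing. Halfway between the day 0 and day 5 log2 values, by linear interpolation, was reached at 1.40 days by Cdh2, 1.82 by Cldn6, 1.91 by Vim and 1.98 by Cdh1. Twist1 reached it at 2.27 days and Epcam at 2.30 days. With 1 library a day these midpoints have no error estimate, and those of Cdh2, Cldn6, Vim and Cdh1 all rest on the libraries of days 1 and 2. The midpoint of Cldn6 is set against a day 5 value below its peak on day 3. Per kilobase, the levels on day 5 ran from Vim at 13.27 through Fn1 at 11.64, Cdh2 at 9.78, Twist1 at 9.26, Cldn6 at 9.09 and Cdh1 at 8.01 to Epcam at 5.76. On day 0 Fn1 led at 11.22, with Vim at 11.02, Cdh1 at 10.63, Epcam at 8.31 and Cldn6 at 7.45, and Cdh2 at 4.58 and Twist1 at 4.56 were last.

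Among transcription factors of this transition, most of those in the table rose. Of 16 genes in the list 13 were in the table, and 5 passed the expression filter. Of these 5, 3 rose and none fell, beside 25.7% and 26.8% of all genes. In the fit with no filter 9 of the 13 rose and none fell, set against 25.9% and 22.1% of all symbols. Snai1, which encodes Snail, stood at 9.49 on day 5, against 5.94 on day 0 (adjusted p = 0.00307 with no filter). Zeb2, a zinc finger homeobox repressor, stood at 10.12 on day 5, against 5.80 on day 0 (adjusted p = 0.00283 with no filter). Its relative Zeb1 stood at 10.66 on day 5, against a higher start of 8.78 on day 0 (slope 0.31 ± 0.0595, adjusted p = 0.00676). Tcf4, the E-protein gene E2-2, rose by 0.20 per day (adjusted p = 0.0407).

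Snai2, which encodes Slug, and the forkhead gene Foxc2 had 1 read each on day 0, the lowest value of that library, which may stand for no read. Against a floor of 3 reads in the day 0 library, Snai2 was at least 54.8-fold higher on day 5 with 264 reads, and Foxc2 at least 260-fold higher with 1254 reads. Both were called with no filter (adjusted p = 0.00406 and 0.00782), but their fitted slopes depend on that value. Foxc1 (8.39 on day 5, against 3.53 on day 0) and the neural crest factor gene Sox9 (9.85 against 4.94) were called as well. The largest slope among the factors kept was that of Hmga2, an architectural chromatin protein gene, at 1.02 ± 0.14 per day (adjusted p = 0.00325). Among those not called were Tcf3 at 11.66 on day 5 against 11.13 on day 0, Klf8 (8.93 against 9.48) and Snai3 (3.26 against 6.15). Their adjusted p with no filter lay from 0.0853 for Snai3 to 0.535 for Klf8.

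**Figure D3:**
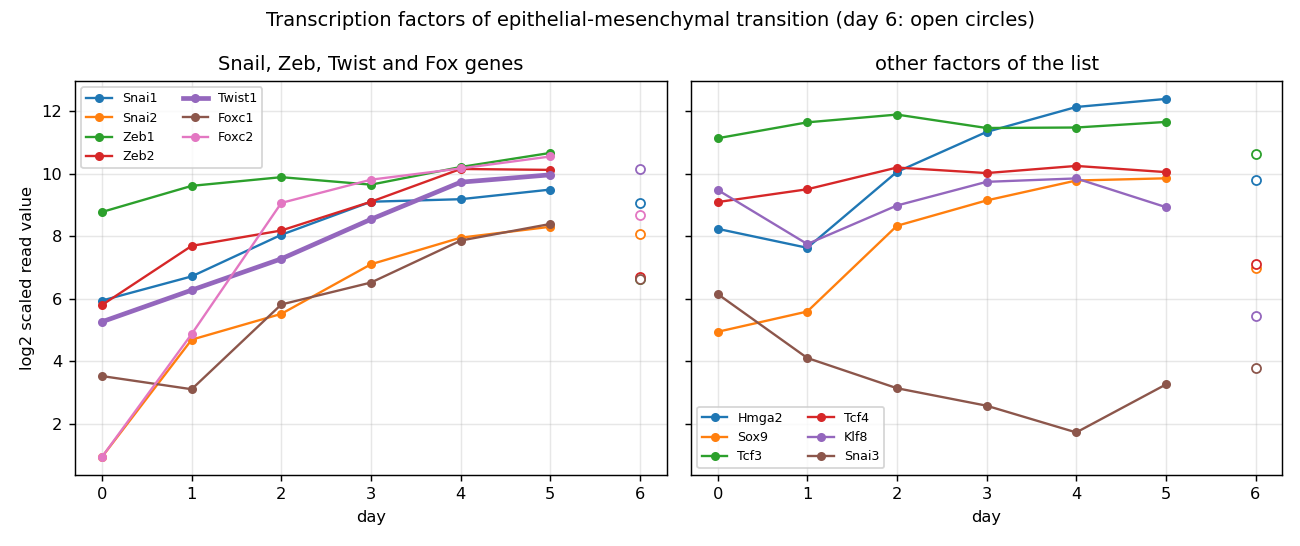
Log2 scaled read value (vertical axis) by day (horizontal axis) of Twist1, drawn thick, and 12 of the 13 listed transcription factors of epithelial-mesenchymal transition found in the table; day 6 is drawn open. Snai1, Snai2, Zeb2, Foxc1, Foxc2, Sox9 and Hmga2 climb over days 0 to 5, and Snai3 stands at 3.26 on day 5 against 6.15 on day 0.

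Most other cadherins lay below the filter. Of 19 listed, 9 were in the table and only Cdh11 passed the filter, through its later days. With no filter 4 of the 9 rose and 1 fell, beside 25.9% and 22.1% of all symbols. Cdh11, a type II cadherin of mesenchyme, rose by 1.13 ± 0.10 per day (adjusted p = 0.00193) and stood at 11.42 on day 5, against 6.37 on day 0. With no filter Cdh6 (9.55 on day 5, against 4.75 on day 0), Cdh10 and Cdh17 rose too, and Cdh4, the R-cadherin gene, fell (5.75 against 8.16). Cdh3, which encodes P-cadherin, had 8.42 on day 5, against 8.24 on day 0 (adjusted p = 0.313 with no filter).

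Catenins link both cadherins to actin. Of 20 listed genes of the cadherin-catenin complex and nectins 13 were kept, of which 3 rose, 2 fell and 8 were not called, beside 25.7% and 26.8% of all genes. Ctnnb1, beta-catenin, rose by 0.16 ± 0.026 per day (adjusted p = 0.00424), and stood at 14.85 on day 5, against 14.00 on day 0. Ctnna1, alpha-catenin, had a slope of −0.0049 ± 0.031 (adjusted p = 0.905). The other rising genes were Lima1 (0.65), which ties actin to the complex, and the nectin gene Pvrl3 (0.24). Pvrl1, which encodes nectin 1, fell by 0.47 per day and Ctnnal1 by 0.27. With no filter 4 of the 15 in the table rose and 2 fell, and the added gene was Ctnnd2, a delta-catenin gene, with 7.68 on day 5, against 4.40 on day 0 (adjusted p = 0.0199).

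Of 30 tight junction genes 17 were in the table and 10 were kept, of which 4 rose and 2 fell, beside 25.7% and 26.8% of all genes. With no filter 5 of the 17 rose and 2 fell, shares near those of all symbols, 25.9% and 22.1%. The rising genes included Inadl (0.65 per day), a scaffold of the Crumbs complex, F11r (0.44), the junctional adhesion molecule A gene, and Pard6b (0.21). Among the falling genes Llgl2, a polarity gene, fell by 0.44 per day. After the length correction 2 rose and 2 fell.

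Of 23 epithelial adhesion and desmosome genes 13 were kept, and 6 rose and 3 fell, beside 25.7% and 26.8% of all genes. With no filter 6 of the 16 in the table rose and 3 fell. The keratin genes Krt19 (slope 1.39 per day), Krt18 (1.24) and Krt8 (0.98) rose most. Krt8 stood at 12.64 on day 5, against 8.56 on day 0. Pkp4, Spint1 and Spint2 fell, by 0.24, 0.23 and 0.20 per day. Of 15 epithelial regulators 3 were kept: Elf3, an epithelial ETS factor, rose (0.47), Klf5 fell by 0.40 and Klf4 was not called (10.34 on day 5, against 11.93 on day 0). With no filter 2 of the 10 in the table rose and 1 fell, beside 25.9% and 22.1% of all symbols. The added gene was Foxa2, which rose, with 9.90 on day 5, against 3.75 on day 0 (adjusted p = 0.0177). Grhl2, a factor known to maintain Cdh1 expression, lay below the filter with 4.72 on day 5 and 4.95 on day 1, against 8.19 on day 0 (adjusted p = 0.125 with no filter).

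Of 36 mesenchymal adhesion and matrix genes 32 were in the table. With no filter 23 of the 32 rose and none fell, beside 25.9% and 22.1% of all symbols. The median day 5 minus day 0 difference of the 32 was 3.13, against 0.13 over all symbols. Among the 9 not called was Thy1, with 4.51 on day 5, against 7.76 on day 0 (adjusted p = 0.3 with no filter). The filter kept 18, of which 16 rose, but a gene low on day 0 could pass it only through its later days. The smooth muscle actin gene Acta2 (2.03 per day), the collagen gene Col3a1 (1.68) and the actin-binding gene Tagln (1.56) had the largest slopes. Acta2 stood at 13.40 on day 5, against 4.94 on day 0. After the length correction 16 rose as well, while over all 7 libraries 2 genes of the list rose.

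Of 21 fibronectin receptors and partners 15 were kept, of which 6 rose and 2 fell, beside 25.7% and 26.8% of all genes. With no filter 8 of the 19 in the table rose and 2 fell. Fn1 itself had no called slope. The integrin subunit genes Itgav (0.71 per day) and Itgb1 (0.49) and the syndecan gene Sdc4 (0.64) rose. Itgb1 stood at 13.81 on day 5, against 11.61 on day 0. Itga5, whose product pairs with integrin beta 1 as the classical fibronectin receptor, had a slope of 0.12 ± 0.041 (adjusted p = 0.0519). Itga3 fell by 0.35 and Itga9 by 0.25 per day.

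In the TGF-beta pathway, a known inducer of the transition, all 24 listed genes were in the table. With no filter 15 of them rose and 1 fell, beside 25.9% and 22.1% of all symbols. The gene that fell was Acvr2b, an activin receptor gene, with 7.81 on day 5, against 8.77 on day 0 (adjusted p = 0.0272). Of the 18 kept 11 rose and none fell, beside 25.7% and 26.8% of all genes. Genes such as Tgfb2, Tgfbr3 and Ltbp1 were low on day 0 and passed the filter only through their later days. The ligand gene Tgfb2 rose by 1.00 ± 0.096 per day (adjusted p = 0.00208) and stood at 11.43 on day 5, against 6.96 on day 0. The coreceptor gene Tgfbr3 (0.98) and Ltbp1 (0.92), which holds latent TGF-beta in the matrix, had the next largest slopes among the genes kept. Below the filter, the ligand gene Tgfb3 had a slope of 1.47 (adjusted p = 0.0027) and the receptor gene Tgfbr2 one of 1.00 (adjusted p = 0.0014). The ligand gene Tgfb1 was lower, with 6.90 on day 5, against 8.45 on day 0, and its slope was not called (adjusted p = 0.414 with no filter).

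The list on E-cadherin and EpCAM processing holds proteases, gamma-secretase subunits and Fhl2, a partner of the EpCAM intracellular domain. With no filter 7 of its 11 genes rose and none fell, beside 25.9% and 22.1% of all symbols. Of the 9 kept 7 rose, beside 25.7% of all genes, and 5 rose after the length correction. Adam10, the main E-cadherin sheddase, rose by 0.77 ± 0.12 per day (adjusted p = 0.00382) and stood at 12.61 on day 5, against 8.90 on day 0. Adam15 (0.36) and the gamma-secretase subunit gene Ncstn (0.31) rose as well. Among 12 other intermediate filament genes 4 were kept, where Nes, which encodes nestin, rose by 0.66 and the lamin genes Lmnb2 and Lmnb1 fell by 0.42 and 0.29 per day. With no filter 3 of the 10 in the table rose and 4 fell, beside 25.9% and 22.1% of all symbols. The added genes were Nefm and Nefl, which rose, and Nefh and Ina, which fell.

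**Figure D4:**
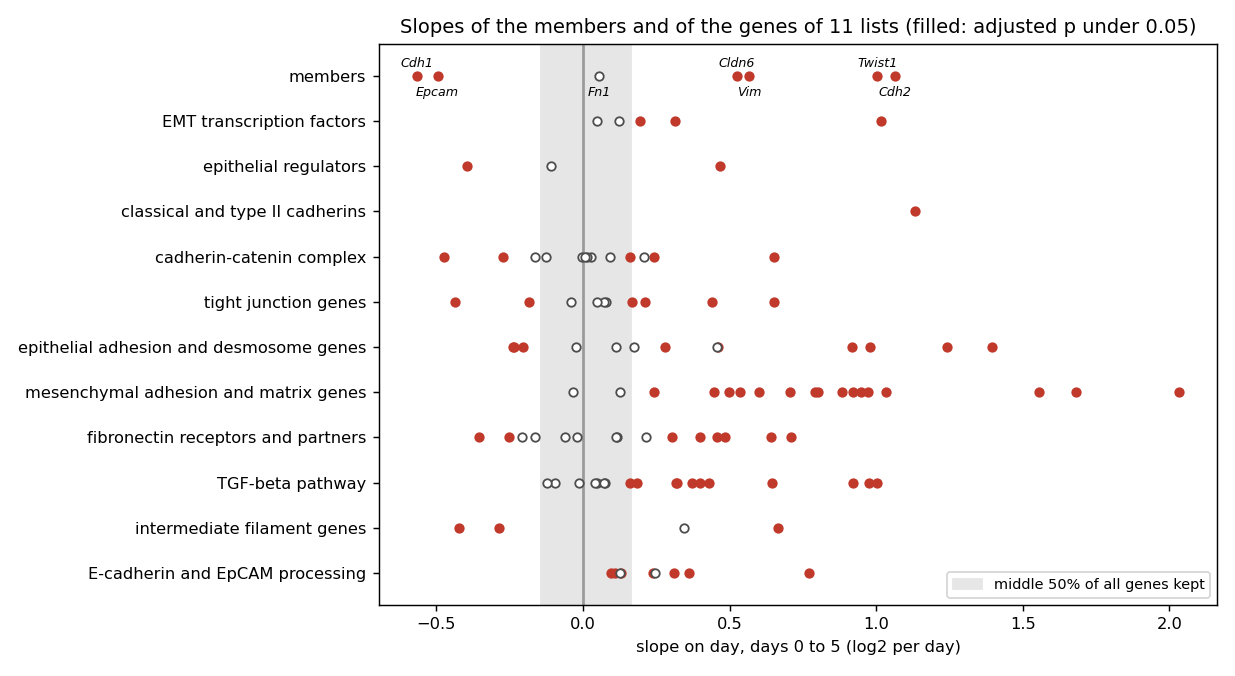
Slope on day over days 0 to 5 in log2 units per day (horizontal axis) for the 7 members, from the fit with no filter, and for the kept genes of 11 lists; filled points have an adjusted p under 0.05, and the grey band is the interquartile range of all 7242 genes, from −0.14 to 0.16. Of the 18 mesenchymal genes kept 16 rose, beside 25.7% of all genes, but a gene low on day 0 could pass the filter only through its later days. With no filter 23 of the 32 in the table rose, beside 25.9% of all symbols. Junction lists lie on both sides.

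Markers of several cell types moved over the same days. The summed level of 9 stem cell markers, all in the table, was 9.89 on day 5, against 16.44 on day 0 on the log2 scale. For 17 of 20 parietal and visceral endoderm markers it was 18.08 on day 5, against 14.52 on day 0, with a top of 18.99 on day 3. The basement membrane genes Col4a1 (16.27 on day 5), Col4a2, Lamc1, Lama1 and Lamb1-1 made up most of that sum on day 5. With no filter 13 of the 17 rose and none fell, beside 25.9% and 22.1% of all symbols. Sox7, Sox17, Cubn and Amn were not called. For 11 of 12 fibroblast and smooth muscle markers the summed level was 15.08 on day 5, against 9.99 on day 0. It was 12.17 against 9.40 for 6 of 9 neural progenitor markers and 12.25 against 12.41 for 7 of 10 neuron markers. With no filter 4 of the 6 neural progenitor markers and 4 of the 7 neuron markers rose, beside 25.9% of all symbols. None of either list fell, beside 22.1%. Of the neural progenitor markers Sox1 (5.30 on day 5, against 6.56 on day 0) and Pax6 (7.93 against 7.71) were not called. Stmn2, which held the most reads of the neuron markers on day 0, stood at 8.68 on day 5, against 11.74 at the start, with no call (adjusted p = 0.0753). Of the endothelial list 4 of 8 genes were in the table (9.72 on day 5, against 10.70 on day 0). With no filter Pecam1 fell (5.68 against 10.11), Tek rose (8.33 against 6.70), and Kdr and Tie1 were not called. The blood and trophoblast lists had 1 gene each there, Runx1 (8.05 against 5.64) and Hand1 (5.35 against 6.64). No marker in the table is at 0, though 1 read may stand for none, and markers outside the table were not analysed here. Vim, Cdh2 and Fn1 are also made by such cells, and the part of changed cell types in the members' courses was not tested.

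The genes most alike to each member were ranked by Pearson correlation of log2 values over the 6 libraries of days 0 to 5, among 3090 kept genes whose days spanned at least 1 log2 unit. The points share their libraries and scaling, and with 6 of them high values are common, so no p is given. Nearest to Cdh1 were Rrp15 (r = 0.999), Nudc and Rsl1d1 (both 0.997). Rrp15 had 8.46 on day 5, against 9.83 on day 0. Nearest to Cdh2 were Cbara1, Fam168b and Ttc28 (all 0.998), and Ttc28 stood at 11.12 on day 5, against 7.74 on day 0.

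Nearest to Epcam were Diap1, Zfp7 and Actl6a, with r from 0.995 to 0.997. Vim was followed by Efemp2, the fibulin 4 gene of elastic fibres (0.997), and the collagen gene Col12a1 (0.996) was also among its nearest. Col12a1 shared its dip, at 7.73 on day 1 beside 8.14 on day 0. Twist1 had Psap (0.999), D5Ertd579e and Tom1l2 (both 0.997) beside it, and Cldn6 had Pdlim1 (0.994), the syntaxin gene Stx3 (0.993) and Cryab (0.990). Cryab, a small heat shock protein gene, stood at 10.73 on day 3 and 9.15 on day 5. For Fn1 the highest r was 0.72, with Tspan4.

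Among the members themselves, over the same 6 libraries, r of Cdh1 with Cdh2 was −0.92, of Cdh1 with Epcam 0.94 and of Vim with Cldn6 0.95. For Fn1 r lay between −0.54, with Epcam, and 0.42, with Twist1.

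Day 6 stood apart. Over the 7242 genes the day 6 minus day 5 difference had a Spearman rho of −0.78 with transcript length, across genes that are not independent replicates. On day 6 the log2 values were 4.46 for Cdh1 with 8 reads, 7.36 for Cdh2 with 60 reads, 5.04 for Epcam with 12 reads, and 9.08 for Fn1. They were 7.57 for Cldn6, 14.63 for Vim and 10.15 for Twist1. The long transcripts of Cdh1, Cdh2 and Fn1 were lower than on day 5 by differences of −5.70, −4.64 and −5.62, beside −2.35, −2.47 and −3.28 on the length trend at their lengths. Vim and Twist1, of 1843 and 1632 nt, stood 0.48 and 0.19 above day 5, beside 0.15 and 0.51 on the trend. Cldn6 and Epcam were lower by −2.12 and −1.77, beside 0.76 and −0.20.

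On day 6 Cdh2 made up 87.7% of the summed cadherin level per kilobase (interval 77.2% to 94.5%), from 8 and 60 reads. Both cadherin transcripts are of nearly the same length, 4662 and 4429 nt. Cdh2 itself was 1.48-fold higher on day 6 than on day 0. What RNA length or quality contributed to these day 6 values was not tested.

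**Figure D5:**
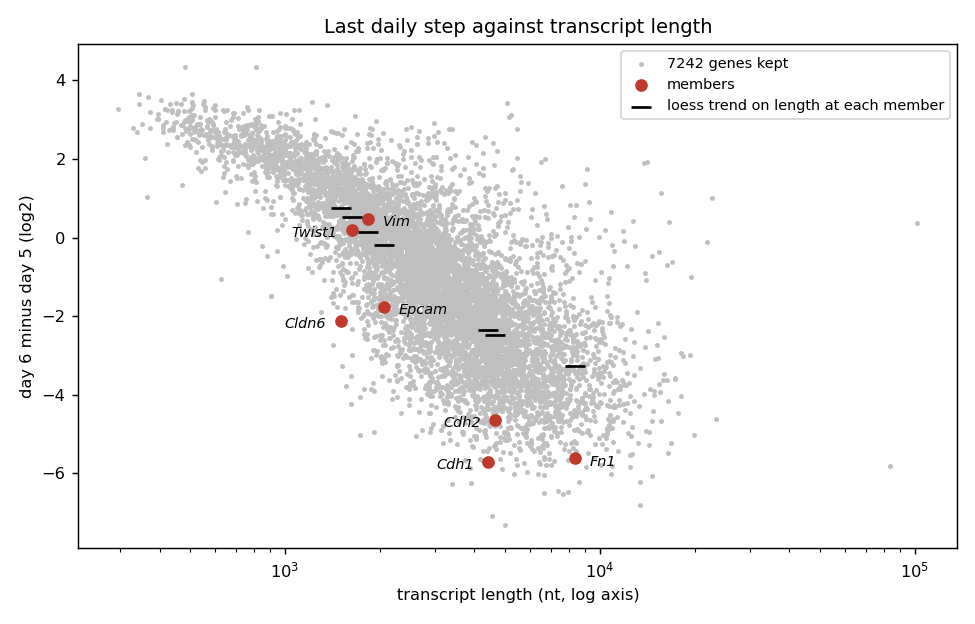
Day 6 minus day 5 log2 difference (vertical axis) against transcript length on a log axis, for the 7242 genes kept (grey) and the 7 members (red); black dashes are the loess trend on length at each member's length. Cdh1, Cdh2, Fn1, Cldn6 and Epcam lie under their dashes, and Vim and Twist1 lie within 0.33 of theirs.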

How the data were processed

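RNA sequencing gave 1 library for each of 7 days. Reads were aligned to mm9 with BWA 0.7.3, per the submitters' processing notes. Not given in the sources used here are how reads were counted and scaled, on which strand and with which annotation. Values deposited by the authors are on the log2 scale, per RefSeq transcript and not divided by length. Raised from the log, 100% of values up to 1000 reads lay within 0.05 of a whole multiple of 1 step per library, taken as 1 read (a number added before scaling would look the same). Recovered reads ran from 7194325 on day 6 to 17923852 on day 4. The table held 15296 transcripts, each with at least 1 read every day, and positions count from 1.

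The transcript with the highest mean over 7 libraries stood for its symbol, and the filter kept symbols whose mean exceeded the 40th percentile (7242 of 12071). limma 3.58.1 (R 4.3.3, mean trend, 4 residual degrees of freedom) fitted a line on day to days 0 to 5, and was tested on simulated data. These held straight lines with independent noise, so stepwise or turning courses and effects shared by a library were not covered. Scatter about the line serves as error. Differences between days have no test, and their 95% intervals are exact binomial ones, with Poisson intervals for single levels. The members and lists were chosen with earlier results of these data known. Named genes were the members, their 3 most alike genes, all listed transition factors in the table and up to 3 called genes per list and direction. Ctnna1, Itga5, Klf4, Grhl2, Cdh3, Cdh4, Cdh6, Cdh10, Cdh17, Ctnnd2, Thy1, Acvr2b, Tgfb3, Tgfbr2, Fhl2 and Stmn2 were named after their values were seen. So were Foxa2, Tgfb1, Nefm, Nefl, Nefh, Ina, Sox1, Pax6, Pecam1, Tek, Kdr and Tie1. Alternatives were other filters and scalings, a length correction, a pseudocount of 16, summed transcripts, each day left out and, chosen after seeing the data, the lists' counts with the length correction and over 7 libraries. Twist2, Prrx1 and Gsc were not analysed here, and a few items that the rule would name are not reported here.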

Additional observations from a re-analysis of the deposited data

How the results depend on the processing

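No paired analysis was possible because each day has 1 library. Over all 7 libraries the slopes were −1.11 for Cdh1 (adjusted p = 0.0602), 0.35 for Cdh2 (adjusted p = 0.563) and 0.14 for Cldn6 (adjusted p = 0.696), none called, and −0.54 for Fn1. Fn1 also turned to −0.067 with the length correction, where its day 5 minus day 0 difference was −0.22; the cause was not tested. With quantile normalization the Cldn6 slope was 0.44, short of the threshold. Leaving out 1 of days 0 to 5 gave slopes from −0.62 to −0.51 for Cdh1, 0.82 to 1.34 for Cdh2, −0.51 to −0.46 for Epcam, 0.47 to 0.69 for Vim, 0.96 to 1.12 for Twist1, 0.43 to 0.80 for Cldn6 and 0.0078 to 0.081 for Fn1. The calls of Cdh1, Epcam, Vim and Twist1 held in each of these. Rising genes numbered 1038 (without day 0) to 2005 and falling genes 1240 (without day 4) to 1960 in those fits, 1128 rose without day 4 and 1281 fell without day 0. Rising genes were 3132 with no filter, 1191 with the filter at the 60th percentile and 116 over 7 libraries, where 274 fell, against 1858 and 1943 over days 0 to 5. Per list, 0 to 2 genes rose over 7 libraries. The median day 5 minus day 0 difference of the genes kept was 0.039 as deposited, −0.15 with median-centring, −0.12 with quantile normalization and −0.17 with the length correction, and no member but Fn1 changed direction under them. Low reads limit Cdh2 and Twist1 on day 0 and Cdh1 and Epcam on day 6.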
